A study of Mus musculus with 36 samples.

Results

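These results describe the response of the liver to fasting in mice labelled AAKO, whose white adipose tissue lacks ATGL, the adipose triglyceride lipase, a product of the gene Pnpla2. They rest on 12 of the 36 arrays of the study, chosen by sample title: 6 of AAKO mice fasted for 24 h without other treatment and 6 of AAKO mice fed ad libitum without other treatment. All mice were males on a C57Bl/6J background, kept on a 12 h light and 12 h dark cycle at 21 to 23 °C on a standard rodent diet, and were killed at Zeitgeber time (ZT) 16, in the dark phase. Both groups carry the same deletion, so the contrast shows fasting in its presence. It was set beside the same contrast in 6 fasted and 6 fed CTRL mice and beside 6 fed AAKO mice gavaged at ZT 10 with 3 mg/kg CL316243, an agonist of the β3-adrenergic receptor. The labels place the fasted and CL316243 groups in experiment 1 and the fed groups in experiment 2, so that fasting and experiment cannot be told apart in any fasted against fed value below. Age, the Cre driver and the number of founder lines are not given in the sources used here. The labels number the arrays of a group from 1 to 6 without tying each to a mouse, and p-values measure the spread between these samples.

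ATGL cuts the first fatty acid from stored triglyceride, and in fasting the fatty acids that leave white fat are the main fuel and signal that reach the liver. In hepatocytes they are oxidised in mitochondria and peroxisomes, turned into ketone bodies and bound by the nuclear receptor PPARα, which switches on the genes of these pathways. In parallel, low insulin and high glucagon and glucocorticoids lower the genes of glycolysis and lipid synthesis and raise those of gluconeogenesis.

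RNA levels were read on 1-colour Agilent arrays and are given as log2 of the processed intensity minus that of the array's 75th percentile, so that a level of 0 is the brightness of that percentile. Fold changes are log2 differences, fasted minus fed, ± the standard error of a limma fit over all 36 arrays, and a gene is said to be called, to have risen or to have fallen at a Benjamini-Hochberg adjusted p under 0.05. Between 33128 and 37200 of 56605 probes were well above background on each of the 12 arrays (58.5% to 65.7%), and the number of arrays limits the precision. On the first principal component, with 70.9% of the variance over 24083 genes, the fasted arrays lay between 71.9 and 81.3 and the fed arrays between -86.6 and -69.4. The second component, with 7.39%, followed the wash batch of the labels, which holds 3 arrays of each group: batch 1 lay between -35.0 and -13.9 and batch 2 between -6.2 and 41.3. The median SD of a gene was 0.203 over the fed and 0.224 over the fasted arrays. Chromosome positions of probes are those of the array design (mm9), which does not mark exons or UTRs. All 10 hepatocyte markers were well above background on all 12 arrays, among them Alb (albumin) at 10.68 ± 0.04 in fed and 10.46 ± 0.07 in fasted arrays (SD, n = 6).

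**Figure D1:**
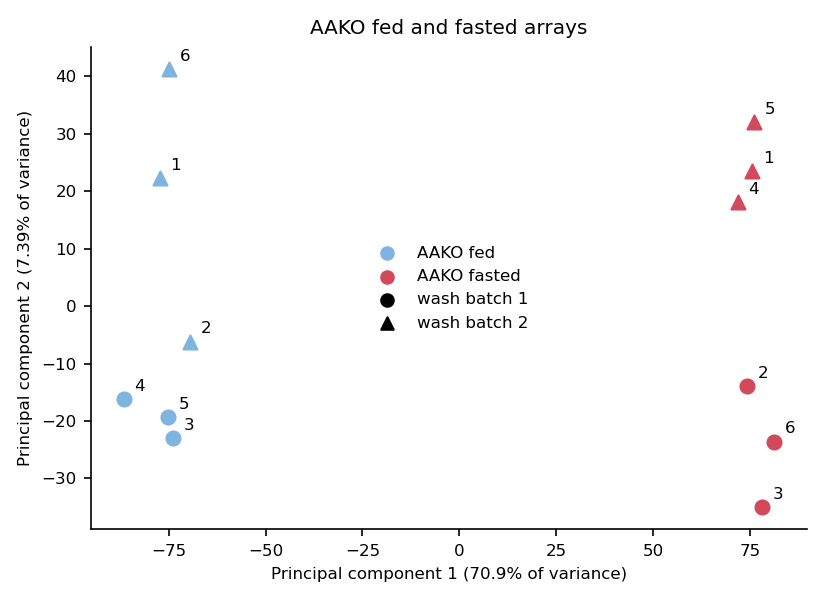
Position of the 12 AAKO arrays on the first (x) and second (y) principal component over 24083 genes, with the replicate number beside each point, colour for the group and shape for the wash batch. The groups are apart on the first component (71.9 to 81.3 against -86.6 to -69.4) and the wash batches on the second.

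Most of the measured liver transcriptome differed between fasted and fed AAKO mice. Of 24097 genes tested, 15326 were called (63.6%), 6617 higher (27.5%) and 8709 lower (36.1%) in fasted mice. A change of at least 2-fold was called for 5161 genes (21.4%), 2386 higher (9.90%) and 2775 lower (11.5%). For 10279 genes (42.7%) no fasted array overlapped any fed array, 4506 higher (18.7%) and 5773 lower (24.0%). The median over all genes was -0.10. In CTRL mice 10547 genes were called (43.8%), 4747 higher (19.7%) and 5800 lower (24.1%). Counts of gene lists below are to be read against these shares.

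The highest rises among genes measured in both groups were those of Cyp2b10, Rgs16, Ppp1r3g, Rab30 and Cdkn1a. Cyp2b10 (chromosome 7, 26711522 to 26711581), a cytochrome P450 known as the marker gene of the xenobiotic receptor CAR, was at -3.84 to -0.69 (median -2.42) in fed and 3.76 to 5.55 (median 4.76) in fasted mice. Its log2 fold change was 7.24 ± 0.58 (adjusted p = 1.7e-12), or 151-fold. The lowest fasted array lay more than 4 log2 units above the highest fed one, and a second probe gave 7.18. Rgs16 (chromosome 1, 155592497 to 155592556), a regulator of G protein signalling, ran from -1.90 to 4.26 (median 0.76) when fed and from 7.58 to 8.22 (median 7.93) when fasted. The fasted arrays were close together, whereas fed replicates 2, 3 and 5 lay at 2.67 to 4.26 and fed replicates 1, 4 and 6 at -1.90 to -1.15. The change was 6.93 ± 0.86 (adjusted p = 2.04e-08). Ppp1r3g (chromosome 13, 36061999 to 36062058), a subunit that targets protein phosphatase 1 to glycogen, had the same fed replicates at the top (0.62 to 1.62) and rose by 6.41 ± 0.88 to between 5.13 and 6.99 (adjusted p = 1.41e-07).

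Cdkn1a (chromosome 17, 29237377 to 29237436), which encodes the cell cycle inhibitor p21, went from a median of -1.23 to 4.84 with no overlap (6.16 ± 0.40, adjusted p = 1.63e-14; 4.19 at a second probe). Rab30 (chromosome 7, 99985062 to 99985121), a small GTPase of the Golgi, rose by 6.32 ± 0.34 (adjusted p = 3.17e-16), from at most -0.47 to at least 4.24. The remaining genes among the 10 highest were Akr1b7 (5.77 ± 0.47), an aldose reductase-like enzyme, the kinase gene Map3k6 (5.73 ± 0.46), the SET-domain gene Setdb2 (5.46 ± 0.33; 2.32 and 5.06 at further probes), the probe that represents Pip5k1a (5.40 ± 0.93) and Cyp4a31 (5.25 ± 0.31), a fatty acid omega-hydroxylase. The Pip5k1a value belongs to that probe alone, since the other 2 tested probes of the gene gave 0.06 and 0.15. On that probe the fed arrays spread from 1.63 to 8.14 and the fasted arrays lay between 9.29 and 9.48.

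Among the largest falls under the same rule were those of Nrep (-5.50 ± 0.33) and Fam47e (-5.23 ± 0.66; -4.29 at a second probe). Fasted replicate 3 was at -3.07 for Fam47e against -0.28 to 0.20 on the other 5 fasted arrays. Keg1 (-5.02 ± 0.22) and Nat8f5 (-4.92 ± 0.22), which encode acyltransferase-like proteins, and Hdhd3 (-4.88 ± 0.26) each fell about as far, with SDs of 0.24 to 0.30 over the fed arrays. Ido2 (chromosome 8, 25642518 to 25642577), an indoleamine dioxygenase of tryptophan breakdown, went from 5.27 ± 0.10 to 0.64 ± 0.49 (SD, n = 6; -4.63 ± 0.19, adjusted p = 2.97e-18) on its brightest probe. A second probe of Ido2 gave -1.15, so that the size depends on the probe. The falls of Rnf186 (-4.80 ± 0.52), a ubiquitin ligase gene, and Ihh (-4.72 ± 0.33; -4.01 at a second probe), which encodes the secreted ligand Indian hedgehog, belong to the same 10, as does that of Inhbe (-4.46 ± 0.31).

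Some genes passed from below to above background or the reverse. Among the 24097 genes tested, the probe was well above background on 6 of 6 fasted and 0 of 6 fed arrays for 41 called genes. For 35 it was so on 6 of 6 fed and 0 of 6 fasted arrays. These genes were chosen by that difference and could be tested through the bright group alone, so that their calls add no support. For these the signal of the dim group is only a bound, set per array at the lowest signal among probes well above background. Cend1, a regulator of cell cycle exit in neurons, was at least 33.7-fold higher in fasted mice, with the fasted mean at -0.06 and the measured fed mean at -6.35. Tg, the thyroglobulin gene, was at least 26.3-fold higher, Scin, an actin-severing protein, at least 9.16-fold, Shisa9 at least 8.89-fold and Frmd5 at least 8.55-fold. In the other direction Noxred1 was at least 8.81-fold lower when fasted, Gask1a at least 7.85-fold, Atp2b2, a plasma membrane calcium pump, at least 7.21-fold, Gngt1 at least 5.56-fold and the orexin receptor gene Hcrtr2 at least 5.33-fold. Each bound belongs to the brightest probe of its gene. A second probe of Atp2b2 gave a log2 change of -0.92, far smaller than that bound, a second probe of Hcrtr2 gave -2.95, and the further probes of Frmd5 gave 2.95 and 3.50.

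**Figure D2:**
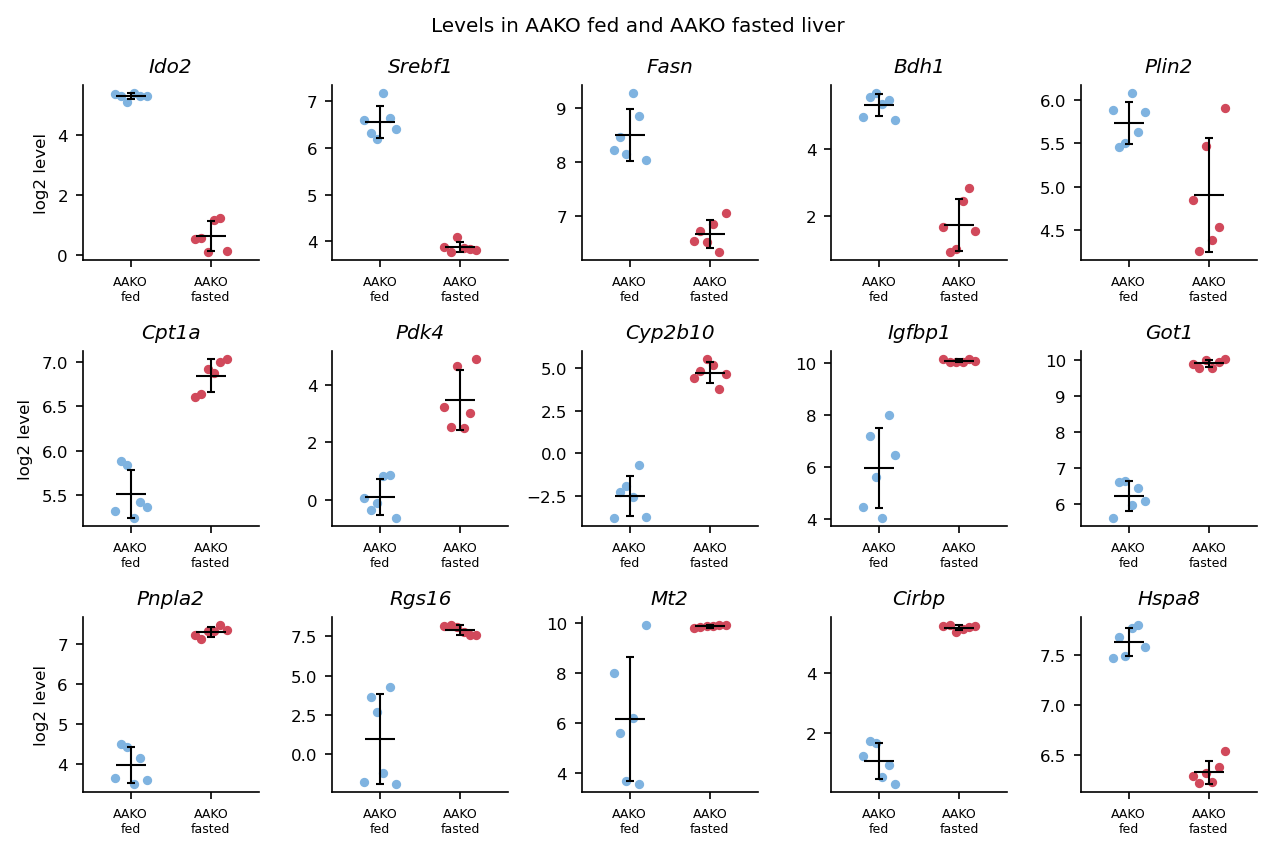
Levels of 15 genes (y axes, log2 above the array's 75th percentile, each with its own scale) on the 6 AAKO fed and 6 AAKO fasted arrays. Each point is 1 array, the bar is the mean and the whiskers are ± 1 SD. The groups overlap for Plin2 and Mt2 and are apart for the other 13 genes.

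The targets of PPARα did not move as 1 group. Of 47 tested, 17 were called higher (27.5% of all genes) and 23 lower (36.1%), with a median of -0.24 against -0.10 over all genes, and 13 rose while 6 fell by at least 2-fold. At the upper end were Cyp4a31 (7.30 to 8.22 when fasted, 1.64 to 3.42 when fed) and Cidec (chromosome 6, 113374693 to 113374752), whose protein enlarges lipid droplets. Fed arrays had Cidec at -1.21 to -0.16 (median -0.79) and fasted arrays at 3.27 to 5.70 (median 4.27), a rise of 4.97 ± 0.41 (adjusted p = 4.24e-12). Pdk4 (chromosome 6, 5433441 to 5433500), the kinase that blocks pyruvate oxidation, rose by 3.35 ± 0.48 (adjusted p = 3.63e-07) from at most 0.86 to at least 2.48. Cpt1a (chromosome 19, 3385374 to 3385433), the entry step of long-chain fatty acids into mitochondria, rose from 5.51 ± 0.27 to 6.84 ± 0.18 (SD, n = 6; 1.33 ± 0.11, adjusted p = 1.03e-11).

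At the lower end, Fitm1 (chromosome 14, 56194734 to 56195160), a fat storage-inducing membrane protein, fell by 2.34 ± 0.23 (adjusted p = 2.36e-10). Fitm1 fell in CTRL as well (-1.06, adjusted p = 0.000394), where it was the only member of the list called lower. Plin2 (chromosome 4, 86302847 to 86302906), the coat protein of lipid droplets, was at 5.46 to 6.08 (median 5.74) in fed and 4.26 to 5.91 (median 4.69) in fasted mice. The fasted arrays spread widely: replicates 3 and 6 stood at 5.47 and 5.91, within the fed range, and the other 4 at 4.26 to 4.84. The fall was -0.84 ± 0.25 (adjusted p = 0.00378), and it was not called within wash batch 1 (-0.52, adjusted p = 0.339). Fgf21 (chromosome 7, 52869305 to 52869364), the fasting hormone of the liver, was at -3.70 to 0.12 (median -2.44) in fed and -5.17 to -1.39 (median -3.33) in fasted AAKO mice. The groups overlapped and no change was called (-1.09 ± 0.59, adjusted p = 0.108). It passed the threshold without fed replicate 6 (-1.37, adjusted p = 0.0498) or fasted replicate 6 (-1.46, adjusted p = 0.0327).

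Enzymes of fatty acid oxidation were mostly lower in fasted mice. Of 20 mitochondrial genes, 2 were called higher and 15 lower, 2 of them by at least 2-fold, with a median of -0.43. The thioesterase gene Acot2 (1.93 ± 0.29) rose most and Hadh (chromosome 3, 130936889 to 130936948), the 3-hydroxyacyl-CoA dehydrogenase, fell most: from 5.07 ± 0.10 to 3.51 ± 0.31 (SD, n = 6; -1.56 ± 0.12, adjusted p = 5.77e-13). Of 23 peroxisomal genes 4 were called higher and 14 lower (median -0.47), from Pex16 (1.26 ± 0.08), an assembly factor of the peroxisome membrane, to Abcd2, a fatty acid importer that was not well above background on any fasted array and at least 2.91-fold lower there. Among 7 genes of ketone body synthesis and export, 3 rose and 4 fell. Bdh1 (chromosome 16, 31457378 to 31457437), which turns acetoacetate into β-hydroxybutyrate, fell from 5.33 ± 0.33 to 1.74 ± 0.77 (SD, n = 6; -3.59 ± 0.24, adjusted p = 5.39e-14), 12-fold, with no overlap. The transporter gene Slc16a6, which exports ketone bodies, rose (0.88 ± 0.25, adjusted p = 0.00306), but in wash batch 2 alone it did not pass (0.71, adjusted p = 0.0576).

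Lipid droplet genes and lipases divided as well, with 11 of 21 called higher and 9 lower. Pnpla2 itself (chromosome 7, 148645928 to 148645987) was read in liver, outside the tissue of the deletion, and so does not check the genotype labels. Its level was 3.50 to 4.51 (median 3.91) in fed and 7.12 to 7.48 (median 7.32) in fasted mice, and all 6 fasted arrays lay above all fed arrays (3.32 ± 0.19, 10-fold, adjusted p = 8.66e-16). Pnpla3, a related gene of lipid droplets, fell (-2.40 ± 0.52, adjusted p = 0.000165) with overlapping ranges.

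**Figure D3:**
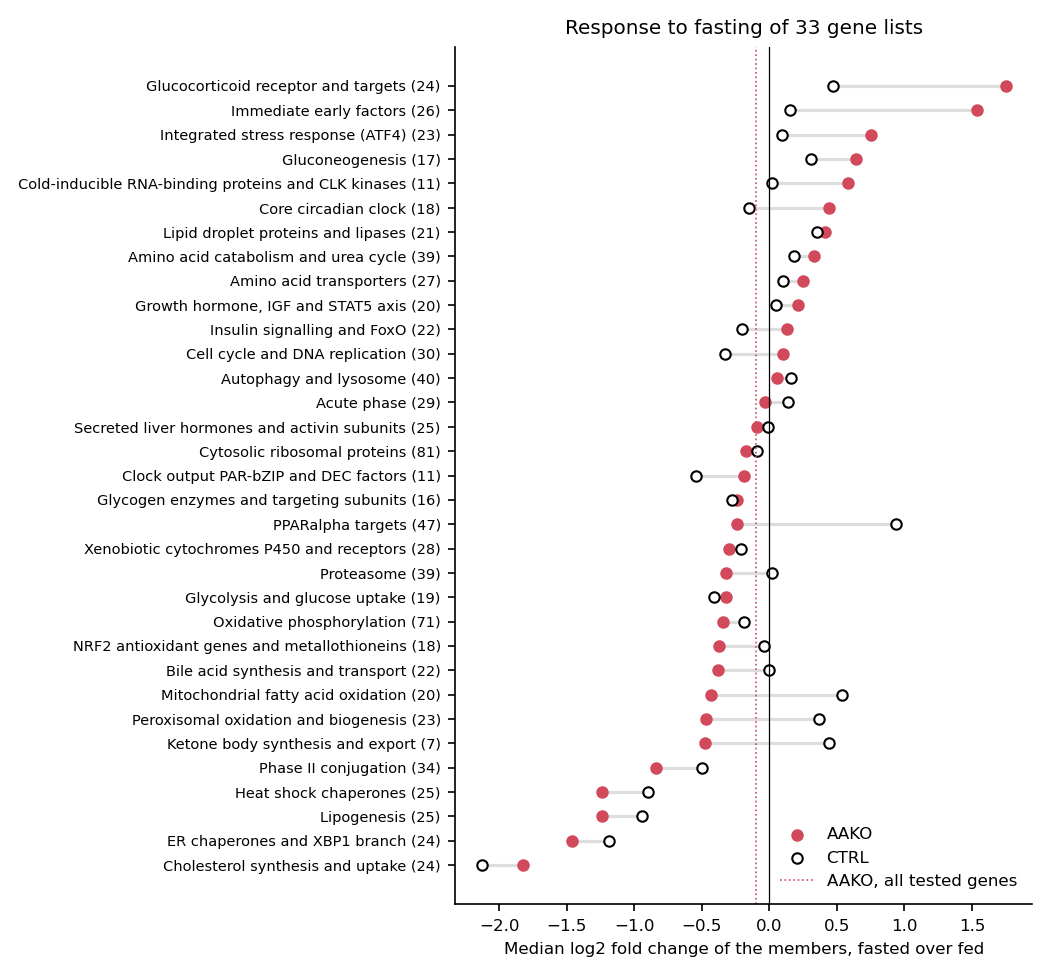
Median log2 fold change, fasted over fed, of the members of 33 gene lists (number of genes tested in parentheses) in AAKO (filled) and CTRL (open). The dotted line is the median of all tested genes in AAKO (-0.10). Glucocorticoid targets (1.75) and immediate early factors (1.54) are at the top and cholesterol synthesis (-1.82) at the bottom.

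Gluconeogenesis leaned up. Of 17 genes, 10 rose and 6 fell, and 7 rose by at least 2-fold, with a median of 0.64 (0.31 with the mean of the probes of each gene). Got1 (chromosome 19, 43574278 to 43574337), the cytosolic aspartate aminotransferase, was at 5.59 to 6.62 (median 6.25) in fed and 9.77 to 10.02 (median 9.91) in fasted mice. Every fasted array lay more than 3 log2 units above every fed array (3.68 ± 0.19, 12.8-fold, adjusted p = 1.56e-16; 4.71 and 4.77 at further probes). G6pc (chromosome 11, 101238947 to 101239006), glucose-6-phosphatase, rose by 1.88 ± 0.39 (adjusted p = 9.95e-05) from a fed range of 4.82 to 7.28 (median 6.34) to a fasted range of 7.69 to 8.40 (median 8.09), and was not called within wash batch 1 (1.38, adjusted p = 0.0855). Pck1 (chromosome 2, 172984307 to 172984366), which makes phosphoenolpyruvate, was already near its fasted level in fed mice: 4 fed arrays stood at 8.51 to 8.55 and replicates 1 and 4 at 7.96 and 7.19, against 8.90 to 9.08 when fasted (0.75 ± 0.18, adjusted p = 0.000589). At the lower end was Gpd1 (chromosome 15, 99555334 to 99555393), the glycerol-3-phosphate dehydrogenase that takes glycerol into the pathway, which fell from 6.93 ± 0.19 to 5.26 ± 0.42 (SD, n = 6; -1.67 ± 0.15, adjusted p = 1.19e-11).

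Of 19 genes of glycolysis and glucose uptake, 2 rose and 12 fell (median -0.32), with the glucose transporter gene Slc2a1 (1.18 ± 0.19, adjusted p = 1.62e-06) at the upper end. Among 16 glycogen genes 4 rose and 7 fell (median -0.24), with Ppp1r3g at the upper end. Amino acid breakdown and the urea cycle had 24 of 39 genes called higher and 7 lower, with 13 and 3 of them by at least 2-fold and a median of 0.33. Amt, of the glycine cleavage system, fell most (-1.65 ± 0.14, adjusted p = 7.6e-12). Of 27 amino acid transporter genes 13 rose and 6 fell. Slc7a6 (chromosome 8, 108721796 to 108721855), a transporter of cationic and neutral amino acids, went from a fed range of -6.14 to -4.47 (median -5.14) to a fasted range of 0.09 to 0.93 (median 0.68) (5.89 ± 0.52, adjusted p = 1.42e-11; 5.00 at a second probe), and was well above background on 2 of 6 fed arrays. Slc36a1, a lysosomal amino acid exporter, fell (-2.00 ± 0.16), although a second probe gave 0.37.

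Lipid synthesis was lower nearly throughout. Of 25 lipogenic genes 22 fell and 2 rose, 17 of the falls by at least 2-fold, with a median of -1.24 against -0.10 for all genes. Srebf1 (chromosome 11, 60013214 to 60013273), the transcription factor that drives fatty acid synthesis, fell from a fed range of 6.19 to 7.18 (median 6.51) to a fasted range of 3.77 to 4.09 (median 3.85) (-2.69 ± 0.19, adjusted p = 1.25e-13). Fasn (chromosome 11, 120668460 to 120668519), fatty acid synthase, fell from a fed range of 8.03 to 9.28 (median 8.35) to a fasted range of 6.32 to 7.06 (median 6.62) (-1.83 ± 0.26, adjusted p = 2.45e-07). Neither gene had overlapping ranges. Angptl8 (chromosome 9, 21641729 to 21641788), an insulin-induced inhibitor of lipoprotein lipase, showed the largest fall of the list (-3.82 ± 0.60, 14.2-fold, adjusted p = 1.44e-06). Lpin1 (chromosome 12, 16543023 to 16543082), a phosphatidate phosphatase and coactivator that is also a glucocorticoid target, went the other way, from a fed range of 2.53 to 4.93 (median 3.96) to a fasted range of 7.03 to 7.30 (median 7.09) (3.27 ± 0.48, adjusted p = 4.37e-07; 2.33 to 4.94 at 3 further probes).

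Of 24 genes of cholesterol synthesis and uptake 21 fell, 16 by at least 2-fold, and 2 rose (median -1.82). Mvd (chromosome 8, 124957750 to 124957809), which makes isopentenyl diphosphate, fell from 2.20 ± 0.45 to -1.20 ± 0.43 (SD, n = 6; -3.41 ± 0.20, 10.6-fold, adjusted p = 2.84e-15). Pmvk, 1 step before Mvd in the pathway, was the exception with 0.98 ± 0.21 (adjusted p = 0.00018); its ranges overlapped and the call was lost within wash batch 1 (0.56, adjusted p = 0.143).

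The chaperones of the endoplasmic reticulum (ER) fell together. Of 24 genes of the ER chaperone and XBP1 list, 22 were called lower, 18 of them by at least 2-fold, and the fasted and fed arrays of all 22 did not overlap (24.0% of all genes were apart in that direction). The median was -1.46. Atf6, a stress sensor of the ER, was the 1 gene that rose (0.81 ± 0.09, adjusted p = 5.34e-09; 0.34 at a second probe), and Xbp1 itself, looked up after its value was seen, was not called (-0.11, adjusted p = 0.482). The largest fall was that of Derl3 (chromosome 10, 75358606 to 75358665), a factor of ER-associated degradation, from a fed range of 1.53 to 2.71 (median 1.85) to a fasted range of -2.21 to -0.68 (median -0.97) (-3.15 ± 0.50, adjusted p = 1.83e-06).

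The 250 bases before the transcription start of 21 of these 24 genes were found in the RefSeq promoter table (GRCm38.p6). The ER stress element, CCAAT and CCACG with 9 bases of any kind between them, was searched on both strands. It was present for 10 of the 21 (47.6%) and for 35 of all 27025 genes with a promoter in the table (0.130%). All 10 were called lower in fasted mice. So were 20 of the 21 genes, with or without the element, and the calls are no result about the element. The matches are shown with 20 bases on each side, 5′ to 3′ on the strand of the gene and with the element in capitals, to let the shared letters be compared. In Calr, Creld2, Derl3 and Ero1b the element lies on the opposite strand.
Calr (chr8:84847055-84847113, minus strand): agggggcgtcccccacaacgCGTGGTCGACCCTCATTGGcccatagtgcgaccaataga
Canx (chr11:50325780-50325838, minus strand): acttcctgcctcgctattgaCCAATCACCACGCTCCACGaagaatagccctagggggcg
Creld2 (chr15:88819500-88819558, plus strand): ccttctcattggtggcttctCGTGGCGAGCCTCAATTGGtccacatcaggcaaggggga
Derl3 (chr10:75893222-75893280, plus strand): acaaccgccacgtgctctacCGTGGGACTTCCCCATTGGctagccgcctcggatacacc
Dnajc3 (chr14:118937807-118937865, plus strand): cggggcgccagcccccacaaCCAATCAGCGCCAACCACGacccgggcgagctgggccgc
Ero1b (chr13:12565662-12565720, plus strand): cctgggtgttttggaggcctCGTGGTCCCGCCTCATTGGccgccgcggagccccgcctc
Hsp90b1 (chr10:86705618-86705676, minus strand): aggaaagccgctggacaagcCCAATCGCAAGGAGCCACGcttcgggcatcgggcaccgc
Hspa5 (chr2:34772005-34772063, plus strand): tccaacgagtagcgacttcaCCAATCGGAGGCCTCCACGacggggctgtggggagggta
Pdia6 (chr12:17266471-17266529, plus strand): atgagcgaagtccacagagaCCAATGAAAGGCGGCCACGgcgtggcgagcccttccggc
Syvn1 (chr19:6046512-6046570, plus strand): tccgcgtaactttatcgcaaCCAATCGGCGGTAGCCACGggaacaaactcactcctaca
Hspa5 (BiP), the ATPase that keeps secretory proteins folded, changed by -1.36 ± 0.14 (adjusted p = 3.08e-10), Hsp90b1 by -1.11 ± 0.12, the lectin chaperone genes Calr and Canx by -2.09 ± 0.17 and -0.88 ± 0.07, the disulfide isomerase gene Pdia6 by -1.45 ± 0.14 and Creld2 by -2.80 ± 0.24. Derl3 changed by -3.15 ± 0.50, Dnajc3, an inhibitor of the kinase PERK, by -0.96 ± 0.10, the oxidase gene Ero1b by -1.17 ± 0.25 and the ubiquitin ligase gene Syvn1 by -1.19 ± 0.19. A match is a description of the letters only.

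Heat shock chaperones of the cytosol and mitochondria were also lower. Of 25 genes 18 fell, 15 by at least 2-fold, and 4 rose, with a median of -1.24. Hspa1b (chromosome 17, 35093374 to 35093405), an inducible Hsp70, fell from a fed range of 3.20 to 4.39 (median 3.38) to a fasted range of -0.20 to 0.26 (median 0.19) (-3.47 ± 0.29, 11-fold, adjusted p = 5.86e-12). Its near-identical neighbour Hspa1a, picked after its values were seen, was not called in AAKO (-0.09 ± 0.38, adjusted p = 0.849). In CTRL the change was -3.86 for Hspa1a and -3.86 for Hspa1b. Signal of the 2 copies may be shared, which was not tested. Hspa8 (chromosome 9, 40612755 to 40613050), the constitutive Hsc70, fell from 7.63 ± 0.14 to 6.33 ± 0.12 (SD, n = 6; -1.30 ± 0.11, adjusted p = 1.09e-11; -1.64 to -1.50 at 3 further probes). Hspa2 rose most (0.80 ± 0.24, adjusted p = 0.00484), and lost the call within wash batch 2 (0.44, adjusted p = 0.257).

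The core of the heat shock element, GAANNTTC (its own reverse complement), was found in the 250 bases before the start of 8 of the 19 members with a promoter in the table (42.1%) and of 2088 of 27025 genes (7.73%). Of those 8, 6 were called lower and none higher. Of all 19, with or without the core, 14 were called lower and 3 higher, so these calls are no result about the core. The 3 of the 8 genes with falls of over 2 log2 units are printed here with the core in capitals.
Dnaja1 (chr4:40722324-40722371, plus strand): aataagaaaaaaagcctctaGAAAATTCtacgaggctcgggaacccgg
Fkbp4 (chr6:128438780-128438827, minus strand): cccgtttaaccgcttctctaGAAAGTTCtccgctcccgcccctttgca
Hspa1b (chr17:34959315-34959362, minus strand): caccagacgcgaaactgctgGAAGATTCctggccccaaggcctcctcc
Dnaja1, a J-domain partner of Hsp70, changed by -2.18 ± 0.11 and Fkbp4, a co-chaperone of steroid receptors, by -2.44 ± 0.15. Hspa1a carries the same 48 bases as Hspa1b around the core.

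**Figure D4:**
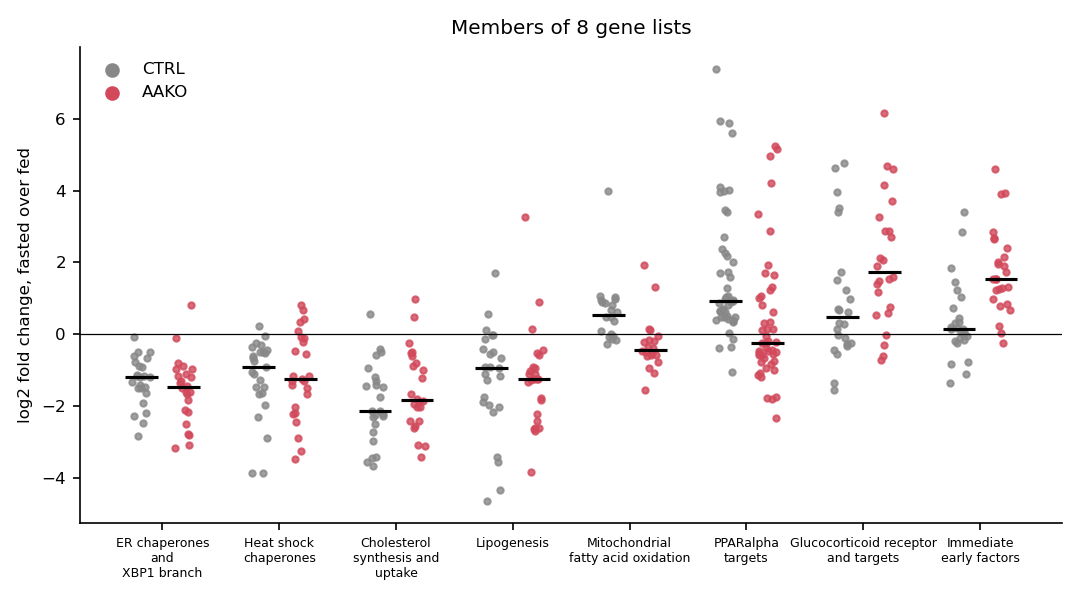
Log2 fold change, fasted over fed, of each tested member of 8 gene lists in CTRL (grey) and AAKO (red), with the median of the members as a bar. Both genotypes lie mostly below 0 for the first 4 lists. For PPARα targets and mitochondrial fatty acid oxidation the AAKO medians (-0.24 and -0.43) lie below the CTRL medians (0.94 and 0.54), and for glucocorticoid targets and immediate early factors above (1.75 and 1.54 against 0.47 and 0.15).

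Glucocorticoid targets stood at the other end. Of 24 genes of the glucocorticoid receptor list 20 rose, 17 by at least 2-fold, and 3 fell, with a median of 1.75; Cdkn1a, Lpin1 and Igfbp1 are members. Fkbp5 (chromosome 17, 28536060 to 28536119), a chaperone that restrains the receptor, rose from a fed range of 3.45 to 4.20 (median 3.90) to a fasted range of 5.13 to 5.83 (median 5.39) (1.60 ± 0.26, adjusted p = 3.5e-06; 2.02 and 3.93 at further probes). Igfbp1 (chromosome 11, 7102442 to 7102501), a secreted binder of insulin-like growth factors, spread from 4.01 to 8.01 over the fed arrays and lay at 10.04 to 10.17 on all fasted arrays (4.15 ± 0.59, adjusted p = 2.42e-07). Tsc22d3 (GILZ) is listed among the falls on its brightest probe (-0.72 ± 0.24, adjusted p = 0.0103), but a second probe gave 0.73, the mean of its probes 0.01 (adjusted p = 0.981), and wash batch 2 alone did not call it (-0.52, adjusted p = 0.228). Its direction therefore holds for 1 probe only.

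Immediate early factors, the transcription factors and regulators that respond within minutes to stimuli, rose as a rule: 23 of 26 were called higher, 19 by at least 2-fold, and none was called lower (median 1.54; 27.5% of all genes were called higher). Gadd45b (chromosome 10, 80394367 to 80394426), a stress sensor, rose most, from a fed range of -2.03 to -0.88 (median -1.40) to a fasted range of 2.76 to 3.52 (median 3.17) (4.59 ± 0.32, adjusted p = 7.25e-14). The palindrome of the cAMP response element, TGACGTCA, was found before the start of 2 of 22 of these genes, Btg2 and Dusp1, and of 1.77% of all genes. In the cholesterol list the sterol regulatory element, TCACCCCAC, was found for 1 of 16 genes with a promoter in the table, Hmgcs1 (6.25%). Over all genes it was found for 0.555%. Of those 16 cholesterol genes 13 were called lower.

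Of 23 genes of the integrated stress response, the programme of the factor ATF4, 13 rose, 10 by at least 2-fold, and 4 fell (median 0.75). Ddit4 (chromosome 10, 59412486 to 59412545), an inhibitor of mTORC1, rose from a fed range of 3.34 to 5.05 (median 3.90) to a fasted range of 8.67 to 8.86 (median 8.73) (4.67 ± 0.47, 25.5-fold, adjusted p = 3.35e-10), and the fasted arrays differed by less than 0.2 among themselves. Asns, asparagine synthetase, rose (1.24 ± 0.37, adjusted p = 0.00387) with overlapping ranges and lost the call within wash batch 1 (1.00, adjusted p = 0.172). Psph, the last step of serine synthesis, fell (-1.62 ± 0.15, adjusted p = 5.3e-11). The C/EBP-ATF composite element TTGCATCA lies before the start of 6 of these 23 genes (26.1%; 0.918% of all genes): Atf3, Chac1, Fgf21, Herpud1, Nupr1 and Vldlr. Of these, 4 were called higher and none lower. Of all 23, with or without the element, 13 were called higher and 4 lower, so these calls are no result about the element.

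Core clock genes had 10 of 18 called higher and 4 lower (median 0.44). Nr1d1 (chromosome 11, 98630526 to 98631028), the repressor REV-ERBα, rose from a fed range of -3.42 to -1.15 (median -2.45) to a fasted range of 1.07 to 2.41 (median 1.53) (3.96 ± 0.38, adjusted p = 1.13e-10). Per1 (1.18 ± 0.28, adjusted p = 0.000432; 0.21 at a second probe) and Ciart (2.49 ± 0.53, adjusted p = 0.000131; 1.48 at a second probe), both repressors of the clock, also rose, while Per2 (chromosome 1, 93312595 to 93312654) fell (-1.91 ± 0.16, adjusted p = 7.91e-12; -0.51 at a second probe). The E-box CACGTG was found for Ciart, Cry1 and Per1 among 14 members with a promoter in the table (21.4%; 6.86% of all genes). Among 11 clock output genes 3 rose and 2 fell, from Nfil3 (1.75 ± 0.27) to Hlf (-0.73 ± 0.12). Of 11 cold-inducible RNA-binding proteins and CLK kinases 7 rose and 4 fell. Cirbp (chromosome 10, 79634233 to 79634292), the cold-inducible RNA-binding protein, rose from a fed range of 0.27 to 1.71 (median 1.07) to a fasted range of 5.37 to 5.61 (median 5.54) on its brightest probe (4.46 ± 0.23, 22.1-fold, adjusted p = 2.18e-16). Its 2 further tested probes gave values from -0.03 to 3.93, so that the size depends on the probe.

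The lists of signalling and hormone genes held calls in both directions, as all genes did (27.5% higher, 36.1% lower), and their counts are no result about these lists. In the insulin and FoxO list 9 of 22 rose and 6 fell: Sesn1 (chromosome 10, 41628000 to 41628059), a sensor that restrains mTORC1, went from 1.64 ± 0.11 to 6.13 ± 0.22 (SD, n = 6; 4.49 ± 0.28, adjusted p = 9.92e-15) and Pik3r1, a subunit of PI 3-kinase, fell (-1.20 ± 0.16). In the growth hormone list 6 of 20 rose and 5 fell. Cux2 (chromosome 5, 122308503 to 122308562), a transcription factor of female liver, was well above background on 3 of 6 fed and 6 of 6 fasted arrays and rose by 6.19 ± 0.60 (adjusted p = 1.27e-10; 6.81 and 8.35 at further probes), while the repressor gene Bcl6 fell (-3.00 ± 0.54, adjusted p = 1.43e-05). Of 25 secreted hormones and activin subunits 8 rose and 10 fell. Pappa2, a protease that cleaves IGF-binding proteins, rose from a fed range of -5.69 to -3.56 (median -4.28), with 4 of 6 arrays well above background, to a fasted range of 0.00 to 1.49 (median 0.54) (5.02 ± 0.43, adjusted p = 8.39e-12; 2.74 at a second probe). Inhbe (chromosome 10, 126786719 to 126786778), the liver activin subunit, fell from a fed range of 2.00 to 3.57 (median 2.62) to a fasted range of -2.14 to -0.54 (median -2.01) (adjusted p = 6.8e-14), with fasted replicate 6 at -0.54 above the other 5 fasted arrays.

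Genes of detoxification and bile handling were lower more often than higher, as all genes were (36.1% lower, 27.5% higher). The lean was strongest for phase II genes, and the counts of the bile acid list lie nearer those shares. Of 34 phase II genes 27 fell and 4 rose (median -0.84), between Nat8 (-2.00 ± 0.16) and the sulfotransferase gene Sult1d1 (1.46 ± 0.22). Of 28 xenobiotic P450 and receptor genes 3 rose and 14 fell, with Cyp2c38 (-1.25 ± 0.16) at the lower end and Cyp2b10 at the upper. Of 22 bile acid genes 5 rose and 11 fell. The uptake carrier gene Slco1b2 (chromosome 6, 141634476 to 141634535) fell from 7.84 ± 0.14 to 5.46 ± 0.26 (SD, n = 6; -2.38 ± 0.15, adjusted p = 8.43e-15; -4.28 at a second probe), and its relative Slco1a4 rose (2.34 ± 0.22, adjusted p = 1.01e-10). Among 18 NRF2 and metallothionein genes 7 rose and 9 fell. Nfe2l2, which encodes NRF2, fell on its brightest probe (-2.71 ± 0.25, adjusted p = 3.61e-11), but a second probe gave 4.46 and the mean of its probes 0.87 (adjusted p = 8.33e-06), so that no direction is set for this gene.

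Large complexes shifted by small amounts. Of 71 oxidative phosphorylation genes 61 fell and none rose (median -0.34), at most by -0.93 ± 0.06 for Ndufs8, a subunit of complex I. Of 81 ribosomal protein genes 52 fell and 6 rose (median -0.17), none by 2-fold. After quantile normalization these 2 medians were -0.19 and -0.04, with 43 and 24 genes called lower. In the proteasome list 25 of 39 genes fell and 7 rose (median -0.32), from Psmg1 (-1.07 ± 0.07), an assembly factor, to Psme3 (0.70 ± 0.17), whose second probe gave -0.04 and which was not called within wash batch 1 (0.73, adjusted p = 0.0622). In autophagy and lysosome 17 of 40 rose and 13 fell, between Wipi1 (2.34 ± 0.18), a factor of autophagosome formation, and the kinase gene Ulk2 (-1.58 ± 0.09). Of 30 cell cycle genes 9 rose and 9 fell, with Cdkn1a at the upper and Ccnd1, cyclin D1, at the lower end (-2.57 ± 0.23, adjusted p = 3.51e-11).

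Acute-phase genes showed spread within groups more than a difference between them. Of 29 tested 4 rose and 4 fell and 21 were not called (63.6% of all genes were called). Saa1 (chromosome 7, 53996070 to 53996129), serum amyloid A, was at 9.31, 10.15 and 10.64 on fed replicates 1, 4 and 6 and at 5.25 to 6.06 on the other 3 fed arrays. On the fasted side, replicates 2, 4 and 5 lay at 9.14 to 10.09 and replicates 1, 3 and 6 at 5.32 to 6.66, and no change was called (-0.01 ± 1.00, adjusted p = 0.994). Cebpd, a factor of the acute phase, rose (2.07 ± 0.26, adjusted p = 2.5e-08) and Saa4 fell (-3.33 ± 0.25, adjusted p = 7.23e-13). Mt2 (chromosome 8, 96697371 to 96697430), a metallothionein, ran from 3.56 to 9.92 over the fed arrays, with replicates 1 and 6 highest, and lay between 9.80 and 9.93 on all fasted arrays. Its rise was called (3.72 ± 0.94, adjusted p = 0.000889), though not within wash batch 2 (2.04, adjusted p = 0.260). Without fed replicates 1 and 6, left out after their values were seen, 14345 genes were called, of which 13973 had been called in the same direction with all arrays.

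Markers of other cells were read beside these groups; in bulk liver fewer cells of a type and less RNA per cell cannot be told apart. Of 10 Kupffer cell and macrophage markers 5 fell and none rose (median -0.74), the summed linear level running from 96.8 to 170 times the 75th percentile on fed and from 26.3 to 124 on fasted arrays. All 6 tested erythroid markers fell (median -1.09), with sums of 899 to 2440 and 506 to 815. Against the fed CL316243 mice of experiment 1, 1 erythroid marker was called lower in fasted mice (median -0.02). In that comparison no macrophage marker was called (median 0.46), and 4 neutrophil markers were called higher (median 1.39). Of 8 neutrophil markers 4 rose and 1 fell, and the sums of 3.78 to 50 and 11.5 to 127 overlapped. The defining neutrophil genes, named like the other markers here after their values were seen, differed among themselves: S100a8 changed by 3.50 and Retnlg by 5.15 (4 of 6 fed arrays well above background), whereas Ly6g (-0.11, adjusted p = 0.427) and Elane (-0.04, adjusted p = 0.737) were not called. None of the 8 had groups that did not overlap. Hepatocyte markers had 3 rises and 6 falls (median -0.20; -0.03 after quantile normalization), from Ttr (-0.73) to Cps1 (0.80). The part of these cells in the values above was not tested.

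The fasting responses of the 2 genotypes were compared with an interaction, the AAKO change minus the CTRL change, in which an experiment effect common to both genotypes cancels. It was called for 8104 genes (33.6%), 3617 higher (15.0%) and 4487 lower (18.6%). Opposite calls in the genotypes were made for 342 genes that fell in AAKO and rose in CTRL, and for 204 that rose in AAKO and fell in CTRL. In replicated fits within wash batch 1 and wash batch 2, with 3 arrays per group, 5070 and 3121 interactions were called.

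On the CTRL side, fasted replicate 2 stood apart toward the AAKO fasted arrays for many named genes. It was at 3.67 for Map3k6 (the other 5 CTRL fasted arrays at -0.19 to 0.65), at 4.78 for Setdb2 (1.22 to 1.84) and at 4.68 for Sesn1 (1.77 to 2.19). The same array was at 7.58 for Ddit4 (2.81 to 4.76), at 6.60 for Lpin1 (2.74 to 4.29) and at -0.83 for Slc7a6 (-6.50 to -4.23). In the other direction it was lowest for Hdhd3 at 0.18 (2.18 to 2.63), for Spon2 at -0.02 (1.41 to 2.17) and for Celsr1 at 0.58 (2.12 to 2.39). Every CTRL fasted mean and every interaction that follows includes it. Without it 9158 interactions were called over all genes, and none of the 75 called for named genes was lost. The interactions of Map3k6, Ddit4 and Ciart were then 5.04, 5.43 and 5.27, and those of Fgf21, Spon2 and Celsr1 -5.45, -5.17 and -3.96.

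Among the lists, PPARα targets had the largest number, though not the largest share, of opposite calls. Of 47 genes 18 fell in AAKO and rose in CTRL (342 of all 24097 genes), and 15 rose in both. Their interaction was called lower for 35 (18.6% of all genes) and higher for 1 (15.0% of all genes). The CTRL median was 0.94. In mitochondrial fatty acid oxidation 18 of 20 interactions were called lower and none higher, and 8 genes fell in AAKO and rose in CTRL. So did 3 of 7 ketone body genes and 7 of 23 peroxisomal genes. Plin2 changed by 2.18 in CTRL against -0.84 ± 0.25 in AAKO (interaction -3.01 ± 0.35, adjusted p = 9.18e-08) and Fgf21 by 4.09 (interaction -5.18 ± 0.83, adjusted p = 1.34e-05). For Cpt1a (0.29 ± 0.16, adjusted p = 0.177), Pdk4 (-0.10 ± 0.68, adjusted p = 0.931), Cidec (-0.91 ± 0.58, adjusted p = 0.239) and Cyp4a31 (-0.36 ± 0.44, adjusted p = 0.578) no interaction was called, which does not show that the responses were alike.

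The lowest interactions after Fgf21 were those of Spon2, Tlr12, Inhbe, Ly6d and Celsr1. Spon2, a secreted matrix protein, was at -1.28 to 0.08 (median -0.65) in fed and -3.53 to -2.66 (median -2.86) in fasted AAKO mice and at -1.35 to -0.54 (median -1.15) and -0.02 to 2.17 (median 1.83) in CTRL. It fell in AAKO (-2.30 ± 0.26) and rose in CTRL (2.56; interaction -4.86 ± 0.37, adjusted p = 7.38e-11). The Toll-like receptor gene Tlr12 did so as well (-3.03 ± 0.41 and 1.03, interaction -4.06 ± 0.57, adjusted p = 2.02e-06). Its rise in CTRL was near the threshold (adjusted p = 0.0384), with overlapping ranges of 0.06 to 2.62 in fed and 1.93 to 3.75 in fasted mice. Inhbe (-0.48 in CTRL, adjusted p = 0.213; interaction -3.98 ± 0.43) and Celsr1 (-4.37 ± 0.29 in AAKO, -0.70 in CTRL, adjusted p = 0.0551; interaction -3.67 ± 0.42) fell in AAKO and were not called in CTRL. Ly6d rose in CTRL (3.44) and was not called in AAKO (-0.37 ± 0.43, adjusted p = 0.467; interaction -3.81 ± 0.61).

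**Figure D5:**
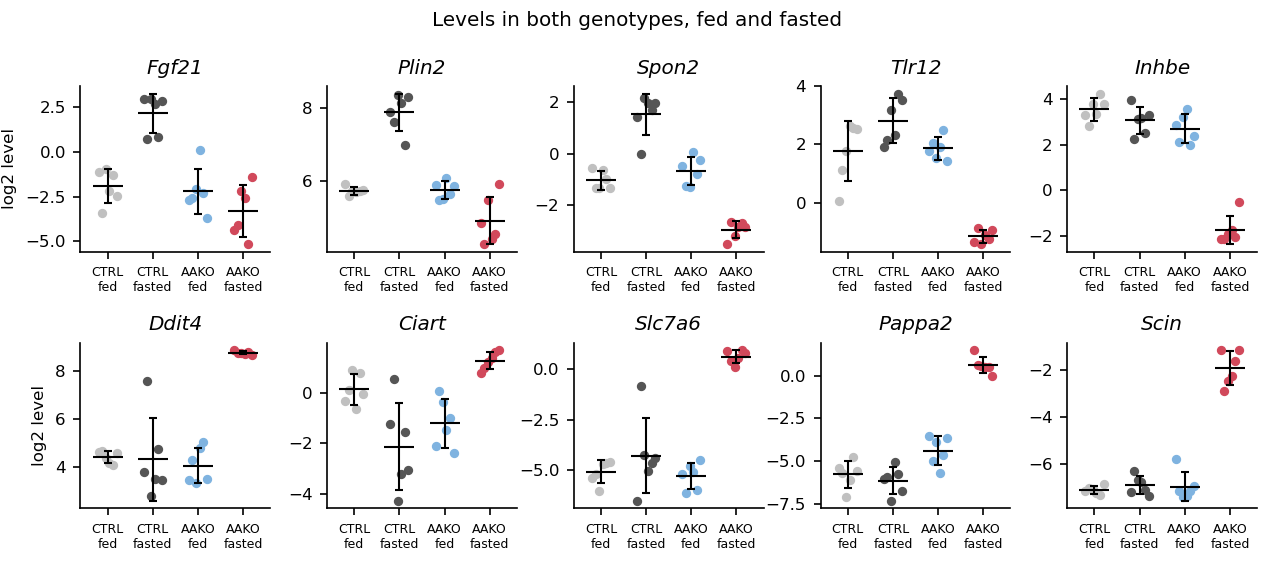
Levels of 10 genes (y axes, log2 above the array's 75th percentile, each with its own scale) on the 6 arrays of each of 4 groups. Each point is 1 array, the bar is the mean and the whiskers are ± 1 SD. Spon2 and Plin2 moved in opposite directions in the genotypes, and Ddit4, Slc7a6, Pappa2 and Scin are highest in AAKO fasted mice. The CTRL signals of Slc7a6, Pappa2 and Scin lay not well above background on many or all arrays.

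The highest interactions, ranked like the lowest among genes above background in all 4 groups, were those of Ddit4, Ciart, Fibin, Rasd2, Map3k6 and Rgs16. Ddit4 was not called in CTRL (-0.10, adjusted p = 0.885; interaction 4.78 ± 0.67, adjusted p = 1.74e-06). Ciart fell in CTRL (-2.26) and rose in AAKO (interaction 4.75 ± 0.75, adjusted p = 9.97e-06). Fibin, a secreted factor, rose by 5.16 ± 0.38 in AAKO and was not called in CTRL (0.47, adjusted p = 0.342; interaction 4.69 ± 0.54), and the same held for Rasd2, a Ras-like GTPase (4.18 ± 0.38 and -0.34, adjusted p = 0.498; interaction 4.53 ± 0.54). In Map3k6 the rise in CTRL was smaller (1.25; interaction 4.48 ± 0.65), as it was in Rgs16 (2.74; interaction 4.19 ± 1.21, adjusted p = 0.00738), whose interaction was called in neither wash batch alone. Scin, which rose in AAKO, was not well above background on any of the 12 CTRL arrays, and neither a CTRL change nor a difference from one is read for it.

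Glucocorticoid targets had 13 of 24 interactions called higher and none lower (CTRL median 0.47), and immediate early factors 15 of 26 and none (CTRL median 0.15). Over all genes 15.0% of interactions were called higher and 18.6% lower. Of the 23 immediate early genes that rose in AAKO, 15 were not called in CTRL, 6 rose and 2 fell. By contrast, the ER chaperones fell in both genotypes: 23 of 24 were called lower in CTRL (median -1.19), and 1 interaction was called higher and 4 lower. For heat shock chaperones 20 of 25 fell in CTRL (median -0.90), with 6 interactions higher and 7 lower. Lipogenic genes (18 of 25 lower in CTRL, median -0.94) and cholesterol genes (23 of 24, median -2.13) had 4 and 9 interactions called higher and 8 and 4 lower. The interaction counts of the heat shock and lipogenic lists lie closer to the shares of all genes and are no result about these lists. The same holds for the lower calls of the ER chaperone and cholesterol lists. Of 39 proteasome genes 12 rose and 9 fell in CTRL, and 29 interactions were called lower and none higher.

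The comparison with CL316243 stays within 1 genotype and 1 experiment and sets fasted mice against fed mice given the agonist. Fasted and CL316243-treated AAKO livers differed in 14449 genes (60.0%), 6235 higher (25.9%) and 8214 lower (34.1%) when fasted. The share of higher calls was 43.2%, against 58.0% in the authors' value table and 32.7% after normexp correction, so that the balance of directions depends on the scaling. This comparison shares the fasted arrays with the contrast against fed mice, and values are given side by side. Cyp2b10 was higher when fasted by 6.37 than after CL316243 and by 7.24 ± 0.58 than in fed mice, Rgs16 by 7.18 and 6.93 ± 0.86, and Ddit4 by 4.99 and 4.67 ± 0.47. For Fasn (0.09, adjusted p = 0.774), Celsr1 (-0.59, adjusted p = 0.0834), Fgf21 (-0.05, adjusted p = 0.951), Pck1 (-0.10, adjusted p = 0.675) and Mt2 (-0.28, adjusted p = 0.815) no difference from CL316243 was called. Nor was one called for Nr1d1 (0.80, adjusted p = 0.0726), Per2 (0.30, adjusted p = 0.109) or Atf6 (-0.08, adjusted p = 0.461). The Pip5k1a probe (0.18, adjusted p = 0.883) and Bcl6 (adjusted p = 0.113) were not called either. Nr1d1, Per2, Atf6, Pip5k1a and Bcl6 were all called against fed mice. Whether their change against fed mice belongs to fasting or to the experiment was not tested. The genes given here are examples and not a full list. The labels mention gavage for the CL316243 treatment alone, and an effect of gavage or vehicle cannot be told apart from that of the agonist.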

How the data were processed

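Liver RNA, 36 samples in all, was hybridised to 1-colour Agilent arrays. Per the file headers and the submitters' processing notes, the authors extracted intensity per spot with Agilent Feature Extraction 10.10.1.1, which subtracts background within the array and does not scale between arrays; limma is also named in those notes, with no step given. The authors' deposited table of values holds log2 values of 36898 probes whose normalization and filter are not stated. Its columns hold equal sorted values within a group, and each of the 36 columns correlated best with its own array (r at least 0.99957); it served as an alternative. Log2 intensity was centred here on the 75th percentile of each array over non-control probes, spots marked as outliers (0.127%) were left out, and spots of a probe were averaged. Old gene symbols were updated through RefSeq for 1535 probes. A gene is its brightest probe, and was tested if well above background on 5 of 6 arrays of at least 1 group (24097 of 37061 genes), so a gene can pass through the group where it is high.

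A linear model of 6 group means and wash batch was fitted over all 36 arrays in limma 3.58.1 (R 4.3.3, data.table version 1.17.8) with Benjamini-Hochberg adjustment over all 24097 genes. Genes were named by rule, 108 in all: the 10 highest and 10 lowest changes measured in both groups without overlap and without probes of opposite sign, the 5 highest and 5 lowest bounds, the 6 highest and 6 lowest interactions, the highest and lowest called member of each list with a change of at least 1.5-fold, and 20 fixed names; 4 of the 108 are not reported here. The members, lists and rules were chosen with earlier results of these data known. Genes listed with a promoter element were named by that element. On simulated arrays of 24097 genes for the AAKO fasted against fed contrast, 57 of 100 genes changed by a log2 of 0.5 and 89 of 100 changed by 1 were recovered, with 6 false calls. Only these genes changed in the simulation, with independent noise and no batch effect, whereas 63.6% of genes were called in the data. The simulated rates therefore do not describe the real contrast. Alternatives covered scaling, background correction (normexp, offset 50), the authors' table, the filter, the choice of probe, samples in the fit, wash batch, slide, the replicate number and leaving out each array. Replicate numbers did not pair the arrays, since the residuals of same-numbered AAKO arrays correlated between -0.22 and 0.19.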

Additional observations from a re-analysis of the deposited data

Results flagged for a closer look

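In 12 of 216 groups of 6 AAKO arrays (the fed and the fasted group of 108 named genes), 1 array stood apart by over 0.625 of the range of the group, where chance gives about 1 in 20 groups. Among fasted arrays, replicate 3 was lowest for Fam47e at -3.07 (the others at -0.28 to 0.20), for Abcd2 at -6.97 (-6.04 to -5.53) and for Derl3 at -2.21 (-1.14 to -0.68). The same array was highest for Atf6 at 3.37 (2.88 to 3.00) and for Srebf1 at 4.09 (3.77 to 3.87). Fasted replicate 6 was highest for Inhbe at -0.54 (-2.14 to -1.75), for Cend1 at 0.87 (-0.57 to -0.04) and for Slc16a6 at 3.51 (2.79 to 2.95). Among fed arrays, replicate 4 was highest for Gpd1 at 7.29 (6.78 to 6.97) and for Hspa1b at 4.39 (3.20 to 3.64), replicate 1 was highest for Scin at -5.79 (-7.40 to -6.95) and replicate 3 was lowest for Slc16a6 at 1.38 (2.10 to 2.43). Leaving out any of these arrays ended none of the changes called for these 11 genes.

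The fasting change differed between AAKO and CTRL, by the interaction in limma at an adjusted p under 0.05, for 75 of the 108 named genes, and the values of 72 are given. Since the naming rule used the AAKO change, and for 12 genes the interaction itself, these are no sample of all genes. Values are the AAKO minus the CTRL log2 change. A positive value need not mean a higher fasted level in AAKO. For Cyp2b10 the fed means were -2.50 in AAKO and 1.02 in CTRL, and the fasted means 4.74 and 5.03. Of the 72, 36 were positive and 36 negative. Among genes with at least 5 of 6 arrays well above background in each of the 4 groups, the positive values were Ddit4 4.78, Ciart 4.75, Fibin 4.69, Rasd2 4.53, Map3k6 4.48, Rgs16 4.19, Ppp1r3g 4.11, Sesn1 3.74, Akr1b7 3.61, Setdb2 3.42, Lpin1 3.28, Cyp2b10 3.24, Nr1d1 2.70, Pmvk 2.39, Cdkn1a 2.20, Got1 2.18, Rab30 2.15, Pnpla2 1.75, Per2 1.63, Per1 1.46, Wipi1 1.34, Hspa2 1.29, Sult1d1 1.20, Gadd45b 1.17, Slc2a1 1.13, Cirbp 1.03, Atf6 0.89, Srebf1 0.85 and Slco1a4 0.81. The negative values were Fgf21 -5.18, Spon2 -4.86, Tlr12 -4.06, Inhbe -3.98, Ly6d -3.81, Celsr1 -3.67, Hdhd3 -3.56, Bdh1 -3.25, Plin2 -3.01, Ido2 -2.96, Rnf186 -2.76, Nrep -2.43, Nat8f5 -2.34, Nfe2l2 -2.14, Acot2 -2.06, Keg1 -2.05, Gpd1 -2.05, Amt -1.95, Slco1b2 -1.65, Hadh -1.40, Fitm1 -1.28, Ihh -1.27, Ccnd1 -1.23, Slc36a1 -0.83, Psph -0.73, Nat8 -0.68, Psmg1 -0.67, Hspa8 -0.65, Ndufs8 -0.39 and Ulk2 -0.34. The remaining genes had at most 4 of 6 arrays well above background in at least 1 of the 4 groups, AAKO or CTRL; their values are fits to measured signals and give no size or rank of a difference: Pappa2 5.39, Slc7a6 5.08, Scin 4.83, Cux2 3.61, Cend1 2.95, Frmd5 2.59, Shisa9 2.18, Atp2b2 -4.38, Gngt1 -4.22, Abcd2 -3.40, Gask1a -2.86, Noxred1 -2.00 and Hcrtr2 -1.32. Some calls depended on the arrays or settings: over 40 alternatives that of Slco1a4 was lost in 22, Gadd45b in 20 and Ulk2 in 11, and that of Ihh in 16 of 39. With the mean of the tested probes Nfe2l2, Cirbp and Slc36a1 lost it. No explanation of these differences was tested.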

How the results depend on the processing

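The 15326 calls for AAKO fasted against fed mice kept within 1.5 times under every alternative run, with 12063 and 12377 in the single wash batches and 14864 to 15053 on leaving out 1 array. The 5161 calls of at least 2-fold became 2591 with normexp, 2540 with normexp and quantile normalization and 3351 in the authors' table, and were 5089 to 5265 without 1 array. The 8104 interactions became 5070 in wash batch 1 and 3121 in wash batch 2, with 3 arrays a group, and ran from 7464 (without CTRL fasted replicate 4) to 9158 (without CTRL fasted replicate 2). The 14449 calls against CL316243 were 13844 to 14327 without 1 array. With the replicate number as a block the 4 counts were 15274, 5162, 8058 and 14350, and only replicate 3 correlated best with its own number. Without fed replicates 1 and 6, chosen after seeing the data, the first 3 were 14345, 5123 and 7226. The share of higher calls among fasted against fed calls was 43.2%, and 36.7% to 51.7% over scalings.

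Of 3008 values of the 108 named genes under alternatives, 2976 kept direction and side of the threshold, 10 lost the call, 3 gained it (all Fgf21) and 19 turned sign. Saa1, not called, turned to 0.14 (quantile), 0.042 (normexp), 0.16 (normexp, quantile), 0.15 (authors' table), 0.11 (wash batch 1), 0.48 (slide fixed), 0.041 (slide random), -0.56 to 0.55 without single arrays and 1.01 without fed replicates 1 and 6. Alb turned to 0.0036 (quantile), 0.0017 (normexp, quantile) and 0.0026 (authors' table), none called. With the mean of the tested probes Tsc22d3 became 0.0073 and Nfe2l2 0.87. Of 75 called interactions of named genes, 14 were not called in the first wash batch alone and 25 in the second, 0 to 4 on leaving out 1 array, 5 without fed replicates 1 and 6, 5 with no filter, 4 with the mean of the tested probes and 0 to 5 over the other scalings; none turned sign. Over all alternatives the interaction of Slco1a4 lost the call in 22 of 40, Gadd45b in 20 of 40, Ihh in 16 of 39, Ulk2 in 11 of 40 and Hcrtr2 in 6 of 39. The cause was not tested, beyond the smaller number of arrays within a batch. Probes near background limit what can be said of dim genes, and experiment and fasting cannot be told apart.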

Other observations

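Markers of further cell types, listed as values only, were mixed. Of 8 stellate cell and fibroblast markers 2 rose and 3 fell (median -0.27), and their summed linear level was 75.6 to 93.5 times the 75th percentile on fed and 115 to 160 on fasted arrays. Of 8 sinusoidal endothelial markers 3 rose and 2 fell, with sums of 67.5 to 81.6 and 59.3 to 75.6. Of 6 cholangiocyte markers 3 fell and none rose, of 6 T and NK cell markers 2 fell and none rose, of 4 B cell markers 2 rose and none fell, and of 7 adipocyte markers 2 rose and 2 fell.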
